A study of Solanum lycopersicum with 15 samples.

Results

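Among the genes expressed in tomato (Solanum lycopersicum) roots, 74 stood lowest when iron was given back together with ammonium or with urea, and higher in all other regimes. They were chosen from the table of 34075 genes by their own values. A gene had to reach a mean of 5 FPKM in at least 1 regime, where FPKM counts fragments relative to transcript length and to the library's total. When the 5 regime means of log2(FPKM + 1) were sorted, the widest gap had to set ammonium and urea below the others and measure at least 1.5-fold on that scale, and the highest of the 6 ammonium and urea libraries had to lie below the lowest of the other 9. The contrasts of ammonium or urea with the other regimes therefore chose the genes, and they are described here without a test.

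Polyadenylated RNA was sequenced from roots under 5 regimes with 3 libraries each. Control roots had neither iron nor nitrogen (-Fe-N), and the others were resupplied with iron alone (+Fe-N), iron and nitrate (+Fe+Ni), iron and ammonium (+Fe+A) or iron and urea (+Fe+U). The labels give no cultivar, plant age, dose or time, and do not say whether the 3 libraries came from separate plants, so p-values measure only the spread between these libraries, which may be technical. The FPKM of a library summed to between 546848 and 589451. Relative depths, read from the steps between low values, lay between 0.876 and 1.28, and the absolute depth is unknown. The table gives identifiers without names or products, and 0 of the 74 identifiers matched the annotation table at hand, so genes are given by identifier, no role is assigned to any of them, and neither the root label nor any pathway list could be checked against named genes. Chromosomes are those in the identifiers.

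As background, the nitrogen forms enter root metabolism by different routes. Nitrate is taken up with protons by nitrate transporters and reduced through nitrite to ammonium before it can be built into amino acids. Ammonium enters through ammonium transporters and is assimilated directly by glutamine synthetase and glutamate synthase. Urea is taken up by its own transporter and split by urease, a nickel enzyme, into ammonium and carbon dioxide, so the last of these routes also delivers ammonium inside the cell. Tomato acquires iron by acidifying the soil around the root, reducing ferric iron at the root surface and importing ferrous iron.

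Together the 74 genes made up 1.03% ± 0.076 of all FPKM in control roots, 0.812% ± 0.0482 with iron alone and 0.812% ± 0.0404 with nitrate, and 0.375% ± 0.024 with ammonium and 0.393% ± 0.0172 with urea (SD, n = 3). A large part of these sums came from 1 gene, Solyc08g081190.ITAG4.0. It averaged 2276 of the 5705 FPKM summed over the members in control roots, 873 of 2152 with ammonium and 974 of 2216 with urea. The median level of the 74 genes in a library was 20.3 to 24.2 FPKM in control roots, 16.4 to 19.0 with iron alone and 17.1 to 20.1 with nitrate, against 7.54 to 7.88 with ammonium and 6.25 to 7.63 with urea. Control roots held the highest levels of the 3 regimes above the gap. Ammonium and urea lay side by side below it, where the rule kept their difference within the gap of each gene. In bulk roots, fewer cells of a type and less RNA per cell cannot be told apart, and this holds for every level given here.

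**Figure D1:**
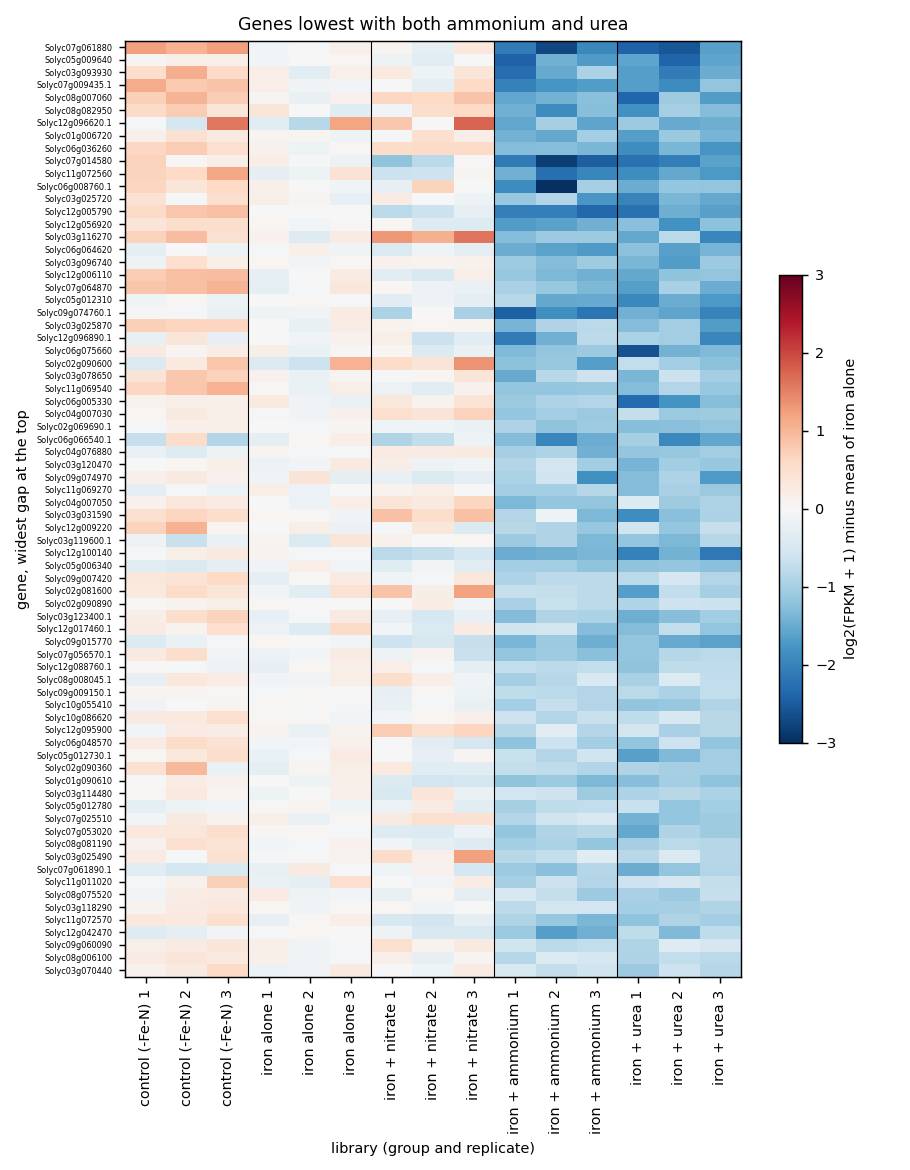
Each row is 1 of the 74 genes, ordered by the width of its gap, and each column 1 of the 15 libraries. Colour gives log2(FPKM + 1) minus the gene's mean over the 3 iron-alone libraries, from blue (lower) to red (higher); the 6 ammonium and urea columns are blue, as the choice of genes requires, and the control columns are pale red for most genes.

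The choice narrowed in steps. A mean of 5 FPKM in some regime was reached by 13750 genes, of which 2539 had ammonium and urea below the other regimes and 601 had their widest gap there. The gap reached the minimum in 99 of these, and 25 were set aside because their libraries overlapped. The same rule turned round, with ammonium and urea above the others, picked 28 genes in the values as deposited. The median member stood at 19.2 FPKM over the 9 libraries above the gap and at 7.37 FPKM over the 6 below it, and the median over the 13750 genes was 15.5 FPKM in the same 9 libraries. The ratio between these means ran from 1.77 to 8.48 with a median of 2.54, and 14 members reached 4-fold. Against iron alone, the median member was 2.27-fold lower with ammonium and 2.5-fold lower with urea. Among the 18889 genes tested below, 54.8% lay below iron alone with ammonium and 63.1% with urea. The median log2 changes of these genes were -0.033 and -0.095. Levels spanned a wide range: 10 members averaged at least 100 FPKM above the gap, 48 lay from 10 to under 100 and 16 below 10.

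The widest gap belonged to Solyc07g061880.ITAG4.0 on chromosome 7, at 2.20 on the log2 scale. Its libraries gave 87.2, 77.0 and 87.2 FPKM without iron or nitrogen, 34.8, 35.0 and 41.0 with iron alone, 39.3, 30.5 and 46.0 with nitrate, 7.82, 4.67 and 8.83 with ammonium, and 6.08, 5.40 and 11.3 with urea. Its levels formed 3 steps, with control roots on top, iron alone and nitrate overlapping in the middle, and ammonium and urea overlapping at the bottom, where the highest library was still 2.70-fold below the lowest of the others. Solyc11g072560.ITAG4.0 on chromosome 11 had the largest ratio of means, 8.48, at a low level: 8.22, 7.79 and 12.1 FPKM in control roots, 3.79, 4.23 and 6.87 with iron alone, 2.71, 2.79 and 5.18 with nitrate, 1.13, 0.22 and 0.491 with ammonium, and 0.603, 1.01 and 0.761 with urea. Solyc07g014580.ITAG4.0, also on chromosome 7, had the largest ratio of iron alone to ammonium, 9.73, with 11.8, 9.92 and 8.84 FPKM against 1.55, 0.574 and 1.01, and stood at 1.34, 1.62 and 2.67 FPKM with urea. Its nitrate libraries, at 3.81, 5.32 and 10.4 FPKM, were the lowest above the gap and overlapped those of iron alone.

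Other members held almost one level above the gap. Solyc05g009640.ITAG4.0 on chromosome 5 lay between 5.16 and 7.96 FPKM in all 9 upper libraries and between 0.449 and 1.88 in the 6 lower ones, the clearest separation of libraries in the set at 2.74-fold. Solyc01g006720.ITAG4.0 on chromosome 1 lay between 4.58 and 7.92 FPKM above and between 0.988 and 2.10 below. These are low levels, and a change on the log2(FPKM + 1) scale understates the difference there. Solyc06g008760.1.ITAG4.0 on chromosome 6 was the only member listed at 0 in any library, at 2.88, 0 and 6.25 FPKM with ammonium, next to 4.15, 5.49 and 5.33 with urea and 11.2 to 21.8 in the upper libraries. An exact 0 in such files can be a failed estimate.

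Solyc07g009435.1.ITAG4.0 on chromosome 7 and Solyc08g007060.ITAG4.0 on chromosome 8 were the most expressed of the 12 widest-gap members. The former stood at 162 ± 19.3 FPKM in control roots, 85.5 ± 10.5 with iron alone, 94.7 ± 30.6 with nitrate, 23.4 ± 3.07 with ammonium and 28.5 ± 7.43 with urea (SD, n = 3). The latter stood at 192 ± 24.0, 108 ± 14.1, 175 ± 18.1, 39.9 ± 4.27 and 34.7 ± 15.8 FPKM in the same order, and its 3 iron-alone libraries were all below its control and nitrate libraries. In the tests given below neither difference was called (limma adjusted p = 0.0608 for iron alone against control and 0.0829 for nitrate against iron alone). Solyc03g093930.ITAG4.0 on chromosome 3 averaged 17.3 ± 4.14 FPKM in control roots, 9.98 ± 2.14 with iron alone and 11.3 ± 2.20 with nitrate. Its averages were 2.86 ± 1.69 FPKM with ammonium and 2.26 ± 0.675 with urea. Solyc08g082950.ITAG4.0 on chromosome 8 lay between 12.0 and 27.6 FPKM in the upper libraries and between 3.49 and 7.41 in the lower ones.

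**Figure D2:**
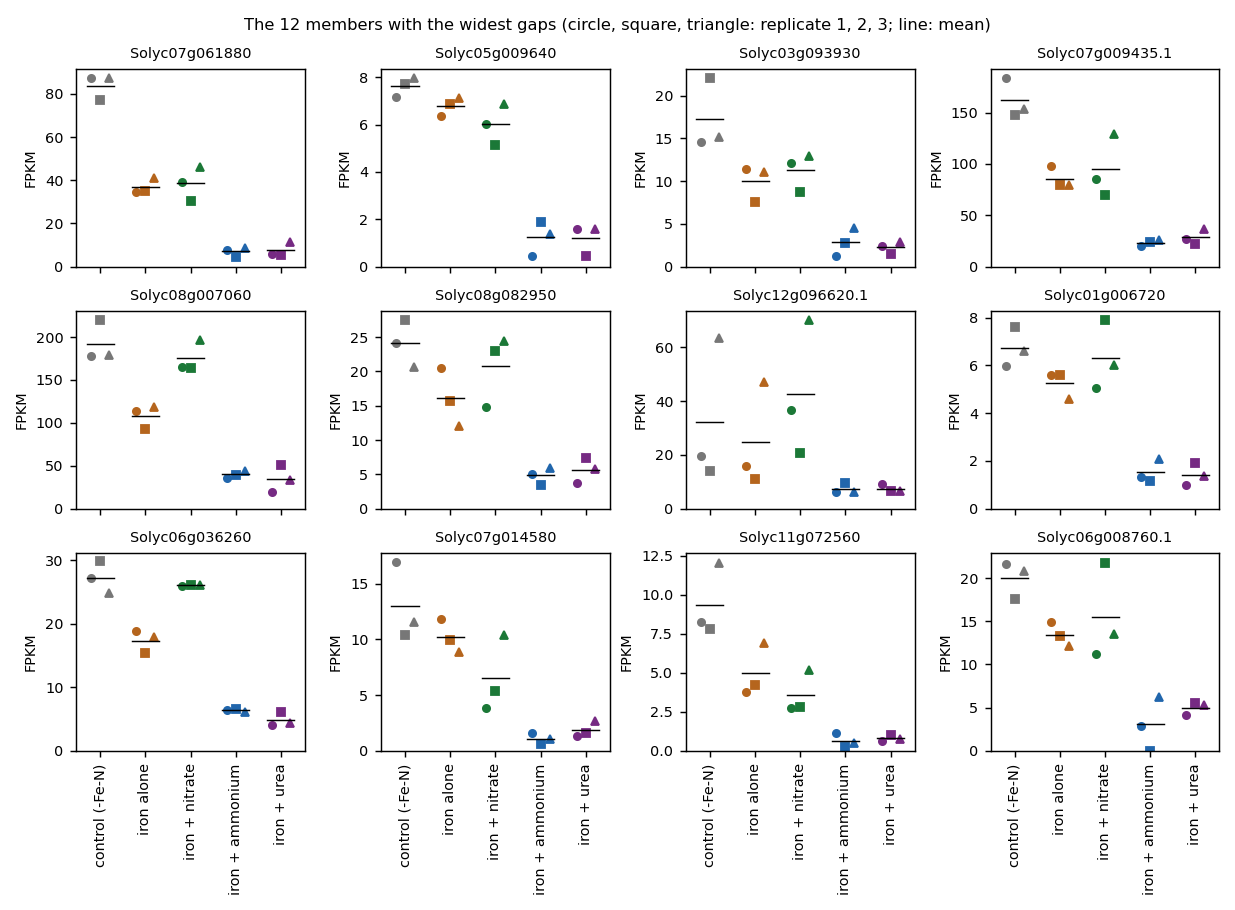
FPKM (linear axis from 0) of the 12 members with the widest gaps in the 5 regimes. Circles, squares and triangles are replicates 1, 2 and 3 and the line is the mean of 3; control roots form a step of their own in Solyc07g061880, and the triangles of Solyc12g096620.1 stand high in the 3 upper regimes only.

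The most abundant member was Solyc08g081190.ITAG4.0 on chromosome 8. Its FPKM was 1949, 2495 and 2383 in control roots, 1705, 1736 and 1947 with iron alone, 1702, 1472 and 1375 with nitrate, 883, 927 and 808 with ammonium, and 904, 1024 and 994 with urea. The lowest of the 9 upper libraries was 1.34-fold above the highest of the 6 lower ones, next to a median of 1.37-fold over the members. The ratio of the means was 2.02. Solyc04g076880.ITAG4.0 on chromosome 4 averaged 287 ± 23.2 FPKM in control roots, 339 ± 19.6 with iron alone and 404 ± 2.85 with nitrate, and at 157 ± 28.7 with ammonium and 156 ± 6.93 with urea (SD, n = 3). In that gene control roots had the lowest mean of the 3 upper regimes, as in 6 members in all, and nitrate the highest. Neither step was called in the tests below (limma adjusted p = 0.236 for iron alone against control and 0.1665 for nitrate against iron alone). Solyc08g008045.1.ITAG4.0 on chromosome 8 and Solyc03g120470.ITAG4.0 on chromosome 3 averaged 133 ± 29.8 and 117 ± 16.0 FPKM with nitrate, and 66.6 ± 13.6 and 66.1 ± 12.0 with ammonium.

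At the threshold the genes differed little from those left out. The members with the smallest gaps were Solyc09g060090.ITAG4.0, Solyc08g006100.ITAG4.0 and Solyc03g070440.ITAG4.0, all at 0.59, with iron-alone means of 6.36, 52.1 and 7.41 FPKM and ammonium means of 3.48, 34.4 and 4.56 FPKM. Just outside lay Solyc12g010120.ITAG4.0, Solyc08g062820.ITAG4.0 and Solyc03g025830.ITAG4.0 with gaps of 0.58, 0.58 and 0.58, iron-alone means of 6.44, 21.2 and 4.80 FPKM and ammonium means of 3.95, 13.3 and 2.81 FPKM. In all, 168 genes met every condition but the size of the gap.

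The rule did not fix the order of control, iron alone and nitrate, nor that of urea and ammonium. It did limit the size of their differences, since each step between neighbours in the sorted means could be no wider than the gap. The counts of members called in the comparisons within these sets are therefore bounded by the choice of genes. These 3 comparisons were tested with limma on all 18889 genes that reached 1 FPKM in at least 3 libraries, and a gene is said to have changed at a Benjamini-Hochberg adjusted p under 0.05 over all of them. All 74 members passed this filter, which their levels above the gap secured.

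Iron alone was compared with control to see what iron resupply without nitrogen did to these genes. Of the 74, 8 fell and 0 rose (10.8%), where 6.40% of all tested genes changed, 3.43% down and 2.97% up. With libraries scaled to equal totals all tested genes split into 426 up and 901 down, against 561 and 648 as deposited. At an unadjusted p under 0.05, 25 of the 74 members were lower and 3 of the 74 higher. Of all 18889 tested genes, 1859 were lower (9.84%) and 2113 higher (11.2%). The median change of the members was -0.25 on the log2 scale, that of all tested genes 0.01, and 59 members (79.7%) lay below 0, as did 47.6% of all tested genes. Control roots held the highest mean in 46 members, nitrate in 16 and iron alone in 12.

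The largest fall with iron alone was that of Solyc07g061880.ITAG4.0, the gene with 3 steps, with a log2 change of -1.16 (standard error 0.24, adjusted p = 0.0133). Solyc07g064870.ITAG4.0, likewise on chromosome 7, had 26.3, 27.9 and 30.1 FPKM without iron and 11.5, 13.8 and 18.4 with iron alone, with no overlap (log2 change -0.92, standard error 0.18, adjusted p = 0.0112), and at 13.3 ± 1.51 with nitrate, 5.93 ± 0.946 with ammonium and 5.07 ± 1.57 with urea (SD, n = 3). Solyc07g009435.1.ITAG4.0 fell by 0.91 on the log2 scale (standard error 0.21, adjusted p = 0.0226). All 3 carry chromosome 7 identifiers. The other 5 were Solyc12g006110.ITAG4.0, Solyc11g069540.ITAG4.0, Solyc12g005790.ITAG4.0 and Solyc03g025870.ITAG4.0, which are outside the naming rule and given because they were called, and Solyc06g036260.ITAG4.0, with log2 changes of -0.86, -0.84, -0.77, -0.67 and -0.62 (limma adjusted p from 0.00685 to 0.0355).

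Fewer members were called without control replicate 2 or 3 (5 and 4) and without iron-alone replicate 1 or 2 (4 each). An adjusted p above 0.05 was found for Solyc07g061880.ITAG4.0 without control replicate 3 or iron-alone replicate 1 or 2 (limma adjusted p = 0.0516, 0.0537 and 0.0513), for Solyc07g064870.ITAG4.0 without iron-alone replicate 1 (0.0537), for Solyc07g009435.1.ITAG4.0 without control replicate 1, 2 or 3 or iron-alone replicate 2 (0.0771, 0.0511, 0.061 and 0.0772), for Solyc12g005790.ITAG4.0 without control replicate 2 or 3 or iron-alone replicate 1 or 2 (0.0827, 0.0954, 0.0804 and 0.071), and for Solyc03g025870.ITAG4.0 without any of control replicates 1 to 3 or iron-alone replicate 1 or 2 (0.0927 to 0.127), while Solyc12g006110.ITAG4.0 and Solyc11g069540.ITAG4.0 were called in all 25 alternatives.

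**Figure D3:**
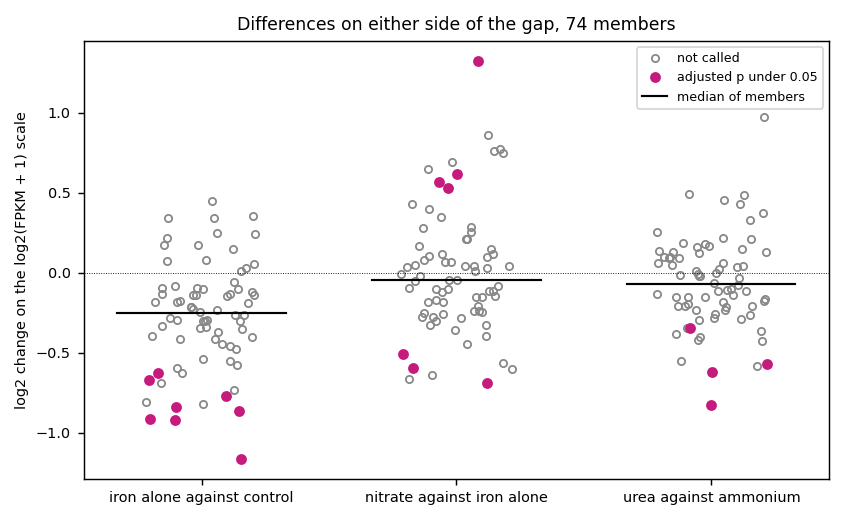
Log2 change of each of the 74 members (points, spread sideways at random) in the 3 tested comparisons, on the log2(FPKM + 1) scale; filled points have an adjusted p under 0.05 and the line is the median of the members. All 8 filled points for iron lie below 0, those for nitrate lie on both sides, and the 4 for urea lie below 0.

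The next comparison, of nitrate with iron alone, asked whether the oxidised form also moved these genes. It raised 4 members and lowered 3 (9.46%), with 11.7% of all tested genes changed, 4.58% up and 7.08% down. With size factors all tested genes split into 1132 up and 1043 down, against 866 and 1338 as deposited. The median change was -0.05 both for the members and for all tested genes, and with size factors it was 0.00 for the members and -0.01 for all genes.

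The largest rise with nitrate was that of Solyc03g116270.ITAG4.0 on chromosome 3. Control roots had 15.9, 19.0 and 13.3 FPKM, and the level was 10.4, 7.04 and 11.5 with iron alone, 24.9, 20.8 and 30.8 with nitrate, 3.28, 3.93 and 3.94 with ammonium, and 2.59, 4.95 and 1.71 with urea. All 3 nitrate libraries lay above every library of the other regimes (log2 change over iron alone 1.32, standard error 0.25, adjusted p = 0.00435). The rise was called in all 25 alternatives. Solyc12g095900.ITAG4.0 on chromosome 12 averaged 9.83 ± 1.25 FPKM with iron alone and 15.6 ± 1.60 with nitrate (SD, n = 3), a rise of 0.62 on the log2 scale (standard error 0.16, limma adjusted p = 0.0245), with 5.80 ± 1.46 with ammonium and 5.29 ± 0.962 with urea.

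Solyc06g036260.ITAG4.0 on chromosome 6 went down with iron alone and up again with nitrate. The libraries gave 27.2, 29.8 and 24.8 FPKM without iron, 18.9, 15.4 and 17.9 with iron alone, 26.0, 26.2 and 26.2 with nitrate, 6.39, 6.58 and 6.05 with ammonium, and 4.04, 6.12 and 4.34 with urea. Nitrate libraries overlapped those of control roots, and the change over iron alone was 0.57 (standard error 0.12, adjusted p = 0.00852). The fall and the rise were measured against the same 3 iron-alone libraries, so they are not independent. Both calls were lost without replicate 3 of every regime (limma adjusted p = 0.061 for iron and 0.108 for nitrate). Solyc04g007030.ITAG4.0 on chromosome 4 also rose, with a log2 change of 0.53 (standard error 0.11, adjusted p = 0.00903).

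Among the 3 that fell, Solyc12g100140.ITAG4.0 on chromosome 12 went from 8.62 ± 0.65 FPKM with iron alone to 4.98 ± 0.622 with nitrate, 2.56 ± 0.17 with ammonium and 1.72 ± 0.776 with urea (SD, n = 3), a fall with nitrate of -0.69 on the log2 scale (standard error 0.17, limma adjusted p = 0.0174). Solyc09g015770.ITAG4.0 on chromosome 9 went from 24.8 ± 1.43 to 16.1 ± 1.24 FPKM (SD, n = 3), or by -0.60 on the log2 scale (standard error 0.13, limma adjusted p = 0.0102). Solyc01g090610.ITAG4.0 on chromosome 1, one of the abundant members, went from 271, 245 and 304 FPKM to 203, 182 and 188 with nitrate, and stood at 117, 126 and 107 with ammonium and 111, 133 and 118 with urea (log2 change for nitrate -0.51, standard error 0.10, adjusted p = 0.00405).

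Without urea replicate 1 nitrate was called for 11 members, 7 of them rising, and without nitrate replicate 3 for 5 falling members. Solyc12g095900.ITAG4.0 was no longer called when iron-alone replicate 2 or nitrate replicate 1 or 3 was left out (limma adjusted p = 0.0901, 0.0755 and 0.0786), nor was Solyc12g100140.ITAG4.0 without iron-alone replicate 1 or nitrate replicate 1 or 2 (0.0627, 0.0554 and 0.0507).

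Urea was compared with ammonium to see whether the genes stood equally low with both. The rule had already kept the difference between these means within each member's gap, so few and small differences were partly set by the choice of genes. A lower share called among members than among all tested genes is therefore no result about the members. Of the 74, 4 were lower with urea and 0 higher (5.41%), where 11.1% of all tested genes differed, 7.09% lower and 3.97% higher. With size factors all tested genes split into 1045 higher and 819 lower, against 749 and 1339 as deposited. At an unadjusted p under 0.05, 11 of the 74 were lower and 2 of the 74 higher. Of all 18889 tested genes, 3401 were lower (18.0%) and 1588 higher (8.41%). The median difference was -0.07 for the members and for all tested genes alike, and 44 members (59.5%) lay below 0, as did 61.0% of all tested genes. With size factors 38 members had the lower value with urea, and Solyc04g007050.ITAG4.0 was then called higher with urea beside the 4 lower ones.

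Solyc06g005330.ITAG4.0 on chromosome 6 had the largest called difference. Its libraries gave 10.5, 12.2 and 12.5 FPKM with ammonium and 3.97, 6.22 and 9.33 with urea, against 21.0 to 32.2 in the upper libraries (log2 difference -0.82, standard error 0.21, adjusted p = 0.0213). Solyc05g012730.1.ITAG4.0 on chromosome 5 gave 14.9, 12.6 and 15.7 FPKM with ammonium and 7.18, 9.09 and 11.2 with urea (log2 difference -0.62, standard error 0.16, adjusted p = 0.0294). In both, no urea library reached the lowest ammonium library. Solyc07g025510.ITAG4.0 on chromosome 7 averaged 8.06 ± 1.30 FPKM with ammonium and 5.08 ± 0.73 with urea (SD, n = 3), a difference of -0.57 (standard error 0.14, limma adjusted p = 0.0206). In Solyc03g118290.ITAG4.0 on chromosome 3, outside the naming rule and given as the last of the 4, the averages were 35.8 ± 3.15 and 27.9 ± 1.25 FPKM, a difference of -0.35 (standard error 0.083, limma adjusted p = 0.0178).

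None of the 4 calls held when only ammonium and urea libraries were fitted (limma adjusted p from 0.0735 to 0.11). Members called numbered 1 without ammonium replicate 2, ammonium replicate 3 or urea replicate 1, and 6 without urea replicate 2, and the direction turned with some of them. The 1 member called was lower with urea without ammonium replicate 2, but higher without ammonium replicate 3 (Solyc06g008760.1.ITAG4.0) and without urea replicate 1 (Solyc12g005790.ITAG4.0), and without urea replicate 2 the 6 were 2 higher (Solyc04g007050.ITAG4.0 and Solyc12g042470.ITAG4.0) and 4 lower. Without ammonium replicate 3 or urea replicate 1 all 4 calls were lost (adjusted p from 0.0645 to 0.138), Solyc03g118290.ITAG4.0, Solyc07g025510.ITAG4.0 and Solyc06g005330.ITAG4.0 lost theirs without ammonium replicate 2 (0.0566 to 0.0619), Solyc05g012730.1.ITAG4.0 without ammonium replicate 1 (0.091), and Solyc05g012730.1.ITAG4.0 and Solyc06g005330.ITAG4.0 without urea replicate 2 (0.0632 and 0.0501).

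**Figure D4:**
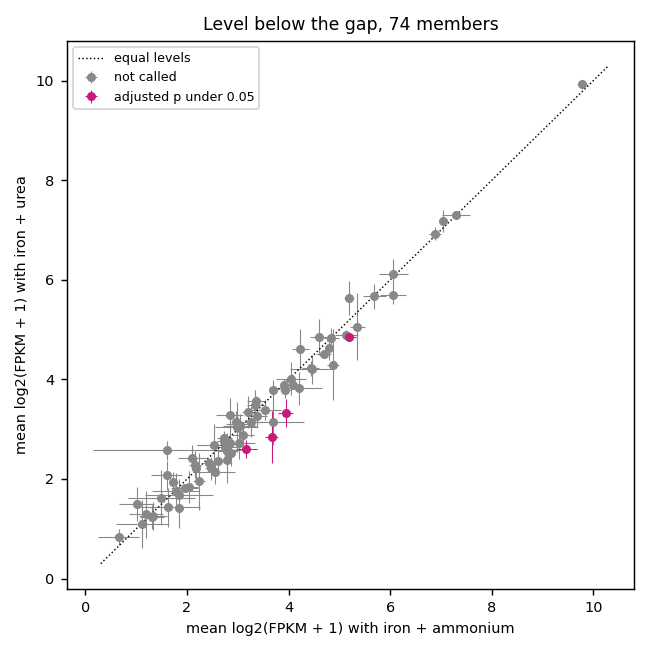
Mean log2(FPKM + 1) of the 74 members with iron and ammonium (x axis) and with iron and urea (y axis), with the SD of 3 libraries as bars in both directions. Points lie along the dotted line of equal levels, and the rule kept the difference between the 2 means within each gene's gap. The 4 filled in colour have an adjusted p under 0.05 and lie below that line.

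Replicates varied more in some members than in others, and replicate 3 stood out. It was the highest library of control, iron alone and nitrate alike in 16 members (21.6%), replicate 1 in 1 (1.35%) and replicate 2 in 4 (5.41%), where among all tested genes these shares were 7.64%, 4.35% and 2.06%. The clearest case was Solyc12g096620.1.ITAG4.0 on chromosome 12, whose control libraries gave 19.7, 14.1 and 63.3 FPKM, against 15.9, 11.0 and 47.1 with iron alone, and 36.6, 20.6 and 70.2 with nitrate. Its ammonium libraries, at 6.23, 9.67 and 6.19 FPKM, and its urea libraries, at 9.11, 6.48 and 6.71, did not show that order. Solyc02g090600.ITAG4.0 on chromosome 2, named after its values were seen, was alike, with replicate 3 at 1.88, 3.21 and 1.88 times the mean of replicates 1 and 2 in control, iron alone and nitrate, and at 0.651 and 0.727 times that mean with ammonium and urea. The relative depths of replicate 3 in the 3 upper regimes were 1.01, 1.00 and 0.876; the last, that of nitrate, was the lowest of all 15 libraries. Leaving out replicate 3 of every regime gave 74 genes by the rule, but only 52 of them were among the original 74 and 22 were lost, and limma then called 6 members for iron, 1 for nitrate and 2 for urea; the part of replicate 3 in the results was not tested further.

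The members were spread unevenly over the chromosomes. Identifiers of chromosome 3 held 14 and those of chromosome 12 held 11, or 9.62 and 11.9 per 1000 genes that reached 5 FPKM in some regime, where the whole genome had 5.38. Chromosome 1, with the most expressed genes, held 2 (1.12 per 1000). These are counts and were not tested. Going through the sorted identifiers, 15 pairs of successive members lay at most 50 identifiers apart, with 26 members in them. In 3 pairs the members were next to each other in that sorted order. The pairs were not set against other sets of genes of this size, so closeness beyond ordinary spacing was not tested.

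On chromosome 4 the adjacent members were Solyc04g007030.ITAG4.0 and Solyc04g007050.ITAG4.0. The former gave 295, 339 and 323 FPKM in control roots, 273, 261 and 310 with iron alone, 401, 364 and 456 with nitrate, 124, 139 and 130 with ammonium, and 171, 129 and 133 with urea. The latter, lower than its neighbour in every library, stood at 93.5, 108 and 102, at 83.9, 75.2 and 97.8, at 110, 103 and 134, at 32.9, 37.4 and 36.8, and at 63.6, 40.2 and 44.3 FPKM in the same order. In both genes nitrate replicate 3 was the highest library, and urea replicate 1 was the highest of the 6 lower ones. The next identifiers, Solyc04g007060.ITAG4.0 and Solyc04g007070.ITAG4.0, were no members because their gaps of 0.47 and 0.41 were too small. They went from 90.6 ± 2.82 and 54.5 ± 1.95 FPKM with iron alone to 57.4 ± 3.05 and 33.5 ± 0.952 with ammonium and 64.9 ± 9.28 and 38.1 ± 6.16 with urea (SD, n = 3), and in both the 6 lower libraries lay below the 9 upper ones. On the other side Solyc04g007015.1.ITAG4.0 stood at 11.6 ± 1.03 FPKM with iron alone, 13.2 ± 1.83 with ammonium and 9.40 ± 1.36 with urea.

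On chromosome 7 the neighbour of Solyc07g061880.ITAG4.0 was Solyc07g061890.1.ITAG4.0, at 13.7 ± 1.03 FPKM in control roots, 19.2 ± 3.49 with iron alone, 17.0 ± 4.00 with nitrate, 8.62 ± 1.39 with ammonium and 7.95 ± 1.86 with urea (SD, n = 3). The pair differed above the gap: iron alone was the lowest upper regime in the first and the highest in the second, whose log2 change over control of 0.45 was not called (standard error 0.19, adjusted p = 0.188). On chromosome 11 Solyc11g072560.ITAG4.0 was followed by Solyc11g072570.ITAG4.0, at 21.9 ± 1.87, 16.8 ± 2.76, 12.0 ± 1.28, 7.10 ± 1.35 and 7.62 ± 0.896 FPKM from control to urea in the same order. In both, the means above the gap were ordered control, iron alone, nitrate, but neither step was called in either gene (limma adjusted p from 0.0613 to 0.39). Solyc11g072550.ITAG4.0, just before them, had a gap of 0.38 and went from 92.7 ± 6.83 FPKM with iron alone to 67.4 ± 6.69 with ammonium and 61.5 ± 6.31 with urea. Genes next to each other can be near-identical copies that share reads, and how the counting treated such reads is not given in the sources used here, so the split of levels within each pair is uncertain.

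**Figure D5:**
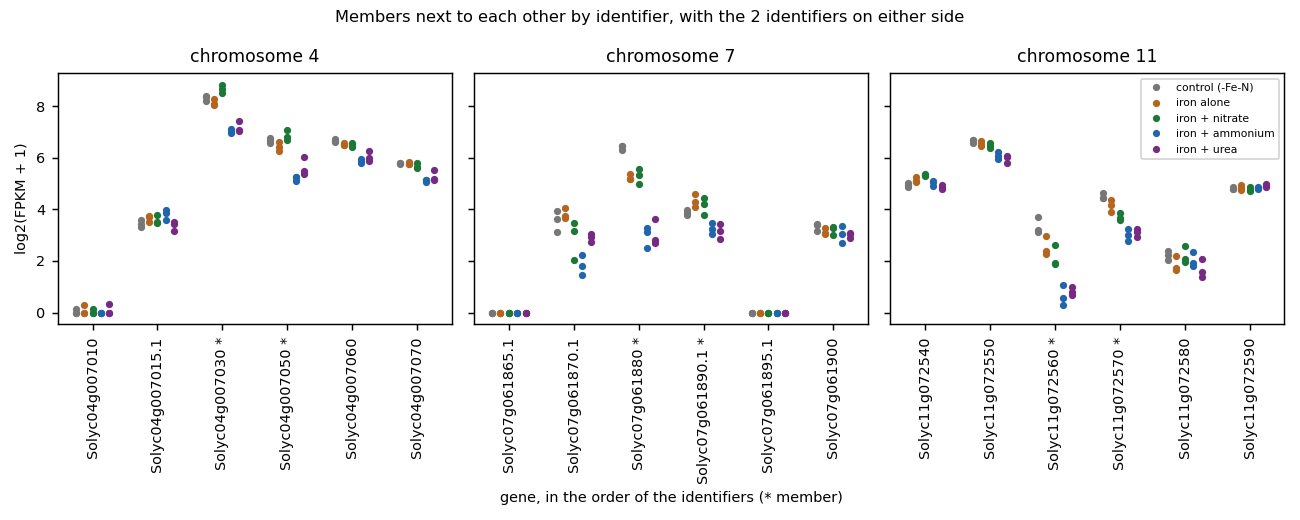
Log2(FPKM + 1) in each of the 15 libraries for the 3 pairs of adjacent members (marked by a star) and the 2 identifiers on either side, in the order of the identifiers, with the regimes in colour. Ammonium and urea lie below the other regimes in 4 successive genes on chromosome 4 and in 3 on chromosome 11, while in Solyc04g007015.1, Solyc07g061900 and Solyc11g072590 the regimes overlap.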

How the data were processed

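The authors deposited FPKM per gene for 15 libraries in 1 table, a unit read from the file headers and name. The submitters' processing notes name HISAT2, an aligner; its version, the genome build and the tool behind FPKM are not given in the sources used here. Identifiers carry the annotation name ITAG4.0. FPKM corrects for depth and length but not for RNA composition.

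Values were transformed as log2(FPKM + 1), and the members were found by the rule given at the start of the report. The members, comparisons and lists were chosen with earlier results of these data known. The 18889 genes reaching 1 FPKM in 3 or more libraries were fitted with limma 3.58.1 in R 4.3.3, with a mean per regime over all 15 libraries and a mean-variance trend; p-values are two-sided and adjusted by Benjamini-Hochberg within a comparison. On data simulated for 18889 genes, 86%, 91% and 86% of genes changed 2-fold were recovered for iron, nitrate and urea. The values were drawn as independent normal values, and only genes with a mean log2(FPKM + 1) above 3 were changed. The median within-group SD on the log2 scale was 0.211 for members and 0.141 for genes reaching 5 FPKM in some regime. Recovery for members, many of them low with ammonium and urea, is therefore not known. Relative depth was fitted to the commonest ratios of low values between libraries, and all 105 pairs matched within 0.05 on the log2 scale. Genes named were the 12 widest gaps, the 6 most expressed others, 3 on either side of the threshold, up to 3 called per direction and comparison, and adjacent members; others are said to be outside this rule. No library pair was identical (0 of 105).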

Additional observations from a re-analysis of the deposited data

How the results depend on the processing

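The rule gave 60 to 99 genes under other pseudocounts, level minimums, scalings and without the condition on overlap, 25 with a gap of at least 1, and 65 to 93 when a library was left out; 40 of the 74 were members whichever library was left out, and 52 without replicate 3 of every group. Scaling by size factors kept 66 of the 74, equal FPKM totals 73 and quantile normalization 62. Fitting only the groups compared left 708, 1192 and 900 genes called for iron, nitrate and urea, and 0 members called for urea, 0 of them lower. A minimum mean of 5 FPKM, which 65 members passed, gave 5 members lower with nitrate, and size factors gave 1 higher with urea. Leaving out a library, or replicate 3 of every group (chosen after seeing the data), gave 4 to 10 members called for iron, all lower, 1 to 11 for nitrate (1 to 7 higher, 0 to 5 lower) and 1 to 6 for urea (0 to 2 higher, 0 to 4 lower), and 534 to 1381, 750 to 2250 and 974 to 2175 genes in all. Without replicate 3 of every group, 671, 750 and 1001 genes in all were called for iron, nitrate and urea, and without nitrate replicate 3, 1225 for nitrate. Of 19 member calls, 3 held in all 25 alternatives; elsewhere a call was lost 53 times and changed sign 0 times. The remaining counts moved by at most 1.5 times. The cause of these shifts was not tested.

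Replicate numbers are shared between groups. Over all tested genes, 3 of 30 same-numbered pairs correlated above 0.1 (median r across genes 0.019, and genes are not independent). Among the 74 members alone the correlations were 0.323, 0.282 and 0.533 between control and iron alone for replicates 1, 2 and 3, and -0.0894, 0.522 and 0.428 between iron alone and nitrate. Between control and nitrate they were -0.0731, 0.234 and 0.42. Some same-numbered libraries above the gap therefore deviated together in the members. With a replicate block limma called 8, 8 and 4 members for iron, nitrate and urea, 1263, 2213 and 2012 genes in all, and the call of Solyc03g025870.ITAG4.0 for iron moved to an adjusted p of 0.0504. Absolute depth is unknown, and counting error was therefore not estimated.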

Other observations

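Some of the 25 genes set aside for overlapping libraries showed large differences between replicates. Solyc12g098800.ITAG4.0 had a gap of 2.10 yet was seen in 3 libraries only, at 123 FPKM in control replicate 2, 100.1 FPKM in iron-alone replicate 3 and 78.0 FPKM in nitrate replicate 3, and was listed at 0 in the other 12. Solyc06g034320.1.ITAG4.0 stood at 42.0, 10.8 and 20.6 FPKM with ammonium and 76.4, 10.1 and 8.70 with urea, against 48.2 to 204 FPKM in the upper libraries; urea replicate 1 was the library that overlapped. In Solyc03g116060.ITAG4.0 replicate 3 was again the highest upper library, at 171, 167 and 125 FPKM in control, iron alone and nitrate, where the other libraries of these regimes lay between 39.9 and 88.7 FPKM. These genes were picked after their values were seen.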
